A study of Rattus norvegicus with 2 samples.

Results

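The 6 genes described here are a set tied to the prostate of the rat: Scgb1d2, Scgb1d4, Scgb2a1, Sbp, Andpro and Hoxb13. They are 6 of 16484 features that carry a number-only gene ID in a table of 113011 features, and all 6 were found by RefSeq symbol. The set was chosen from the values of the same 2 libraries because its genes were high in WT and near 0 in UUO urine, so every level and difference of these genes below is a description, with no test. RNA of rat urine was sequenced in 1 library labelled WT and 1 labelled UUO. UUO stands for unilateral ureteral obstruction, here ligation of the right ureter, and the WT library came from rats that had the same operation without ligation. Both groups were Sprague Dawley rats of 8 weeks of age (postnatal day 56), studied 2 weeks after surgery. By the study's methods a catheter in the ureter, above the bladder, was the route of collection for all animals. The sex of the rats and the number of rats behind a library are not given in the sources used here, and with 1 library per group the obstruction, the animals and the handling of a library cannot be told apart.

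Prostatein, also called prostatic steroid-binding protein, is the major protein that the ventral lobe of the rat prostate secretes. It belongs to the secretoglobins, small secreted proteins that pair into dimers, and is built from chains named C1, C2 and C3, which RefSeq lists as Scgb1d2, Scgb1d4 and Scgb2a1 with the aliases Psbpc1, Psbpc2 and Psbpc3. Its genes are under androgen control and are classical models of hormone action. Sbp encodes a spermine-binding protein and Andpro a cystatin-related glycoprotein (alias Crp1), both secreted by the ventral prostate, and Hoxb13 encodes a posterior homeobox transcription factor of the prostate and hindgut. The prostate empties into the urethra, below the ureter and the bladder.

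The RefSeq start regions of the prostatein genes are shown because Scgb1d2 and Scgb1d4 led the WT library and Scgb2a1 encodes their partner chain, and those of Andpro and P22k15 because these cystatin-related genes share a listed locus and were both high in WT urine. Each window runs from 250 bases before to 50 bases after the annotated start, 5′ to 3′ on the strand of the gene, in the GRCr8 assembly. Capitals mark the letters TATAAA, the core of a promoter element that places the start of transcription, and TGTTCT, the core of the androgen response element. Both were searched on both strands, and they do not overlap in the windows shown. The windows are chr1:215656661-215656960 (minus strand) for Scgb1d2, chr1:215755113-215755412 (plus) for Scgb1d4, chr1:215922501-215922800 (plus) for Scgb2a1, chr3:157178055-157178354 (minus) for Andpro and chr3:157427939-157428238 (minus) for P22k15.
Scgb1d2: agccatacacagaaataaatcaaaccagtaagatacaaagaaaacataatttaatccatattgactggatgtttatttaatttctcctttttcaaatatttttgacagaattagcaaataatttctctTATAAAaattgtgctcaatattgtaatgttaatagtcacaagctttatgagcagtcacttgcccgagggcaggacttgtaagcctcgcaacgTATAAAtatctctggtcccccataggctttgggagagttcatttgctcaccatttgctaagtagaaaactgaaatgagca
Scgb1d4: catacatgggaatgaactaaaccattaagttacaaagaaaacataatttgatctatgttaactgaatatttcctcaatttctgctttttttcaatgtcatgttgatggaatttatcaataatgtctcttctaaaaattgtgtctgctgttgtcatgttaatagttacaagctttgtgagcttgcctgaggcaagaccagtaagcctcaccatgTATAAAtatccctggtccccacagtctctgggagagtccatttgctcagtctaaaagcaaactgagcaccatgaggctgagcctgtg
Scgb2a1: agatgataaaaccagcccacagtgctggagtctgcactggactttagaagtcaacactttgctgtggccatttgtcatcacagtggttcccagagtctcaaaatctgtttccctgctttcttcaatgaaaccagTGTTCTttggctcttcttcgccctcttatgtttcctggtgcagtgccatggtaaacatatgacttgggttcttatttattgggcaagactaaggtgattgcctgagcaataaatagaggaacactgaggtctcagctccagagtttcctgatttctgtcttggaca
Andpro: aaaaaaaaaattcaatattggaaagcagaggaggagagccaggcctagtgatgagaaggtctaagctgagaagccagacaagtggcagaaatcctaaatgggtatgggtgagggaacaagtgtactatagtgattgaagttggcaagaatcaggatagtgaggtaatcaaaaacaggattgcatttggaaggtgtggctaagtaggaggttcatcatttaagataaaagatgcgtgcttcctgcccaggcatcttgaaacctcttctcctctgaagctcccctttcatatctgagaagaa
P22k15: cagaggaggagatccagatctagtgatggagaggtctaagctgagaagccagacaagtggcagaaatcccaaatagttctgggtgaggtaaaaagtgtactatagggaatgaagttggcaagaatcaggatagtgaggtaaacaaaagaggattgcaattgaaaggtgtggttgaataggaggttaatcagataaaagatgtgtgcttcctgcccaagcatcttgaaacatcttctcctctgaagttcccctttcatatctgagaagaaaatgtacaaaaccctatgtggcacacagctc

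The windows of Scgb1d2 and Scgb1d4 aligned over 278 bases, of which 219 (78.8%) were identical. Both hold TATAAA shortly before the start, 30 bases before it in Scgb1d2 and 37 bases before it in Scgb1d4. Of all 33469 windows of this length, 2.26% hold TATAAA on the strand of the gene within the 50 bases before the start, and 14.2% hold it anywhere on either strand. The Scgb2a1 window holds TGTTCT 116 bases before the start, as 20.7% of all windows hold it on either strand. Andpro and P22k15 were more alike, with 243 of 269 aligned bases identical (90.3%). In the other 13 pairs among these genes and Cyssl1, a cystatin S-like gene, at most 41 bases could be aligned. The complete androgen response element, taken as AGAACA and TGTTCT on the same strand with 3 bases between, was found in 5 of all windows (0.0149%) and in none of those of the 6 genes that had a window. Sbp has 3 windows, with none of these motifs, and Hoxb13 was not matched. A match is a string of letters and not a shown binding site.

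Values are FPKM, the fragments of a transcript per kilobase of its length, scaled to a total of fragments of the library, as the authors deposited them. Which total they used is not stated. FPKM is a level per length, so genes can be set side by side within a library. The assembled features of the table changed in steps of whole fragments, from which normalising totals of 2116000 fragments (WT) and 2446000 fragments (UUO) were estimated. Of the values used, 93.5% of 186 in WT and 99.5% of 3530 in UUO urine lay within 0.1 of a whole number. The length subtracted in the fit was 128 bp in WT and 176 bp in UUO urine, so the libraries differ in how much FPKM raises short transcripts. On a transcript of 500 bp, 1 fragment equalled 1.27 FPKM (WT) or 1.26 FPKM (UUO), and 3 fragments equalled 3.79 FPKM in UUO urine. Below that level a value of UUO urine lies within the counting error of 0. The conditions are called UrRf and Urc in the table, and were read as UUO and WT since values of this table appear in lists of the study that are headed UUO and sham.

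Of the prostatein chains, Scgb1d2 and Scgb1d4 held the top of the WT library. Scgb1d2 (ID 309203, chr1:232544255-232547497 as listed in the table, whose processing notes name the rn5 build) had an FPKM of 9354 in WT urine and was listed at 0 in UUO urine. It was the highest of all 16484 number-only genes in WT urine. Scgb1d4 (ID 293731, chr1:232643512-232646396) had an FPKM of 6798 in WT urine and was also listed at 0 in UUO urine. It ranked 2, at 1.81 times the level of the gene ranked 3, the calcium-binding protein gene S100a6 with 3753. Scgb2a1 (ID 361725, chr1:232850587-232853956) was far below its partner chains, at 177 in WT urine, rank 299. It alone of the set had a value above 0 in UUO urine, 1.12, which is less than 1 fragment on a transcript of 500 bp. The level of Scgb1d2 was 1.38 times that of Scgb1d4 and 53.0 times that of Scgb2a1 in WT urine. The start windows of Scgb1d2 and Scgb1d4 were 78.8% identical, and whether their transcripts share reads was not tested. If they do, the sum of the 2 genes, 16152, depends less than either value on how such reads were divided. Fewer cells that make a transcript and less of it per cell cannot be told apart in such a library.

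**Figure D1:**
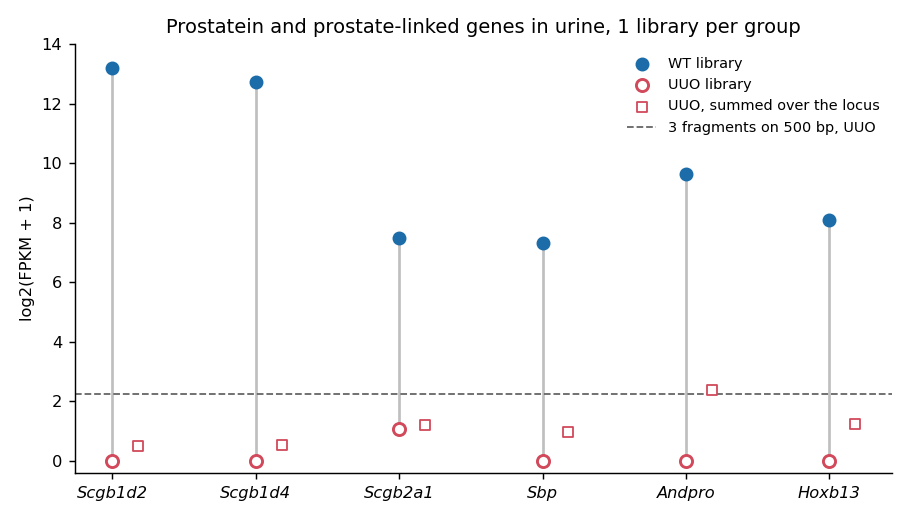
Level of each of the 6 genes as log2(FPKM + 1) in the WT library (filled circles) and the UUO library (open circles), with the UUO sum over all entries of the same locus (squares) and the level of 3 fragments on a 500 bp transcript in UUO urine (dashed line). All 6 WT values lie far above the line and all 6 UUO values below it, and among the locus sums only that of Andpro, 4.21 FPKM, is above the line.

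The secreted products outside prostatein were lower than its main chains but still high. Andpro (ID 25030, chr3:149833587-150507740) had an FPKM of 792 in WT urine, rank 31, and was listed at 0 in UUO urine. Sbp (ID 25540, chr10:13121243-13125343) had an FPKM of 159.9 in WT urine, rank 342, and was listed at 0 in UUO urine. Andpro was thus 4.95 times as high as Sbp in WT urine. The transcription factor gene Hoxb13 (ID 303480, chr10:83834615-83836889) had an FPKM of 274 in WT urine, rank 157, and was listed at 0 in UUO urine. In WT urine the order of levels was therefore Scgb1d2, Scgb1d4, Andpro, Hoxb13, Scgb2a1 and Sbp. The spread between animals is unknown, so no pair of neighbours in this order can be called different, and Scgb2a1 and Sbp in particular were close, at 177 and 159.9.

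**Figure D2:**
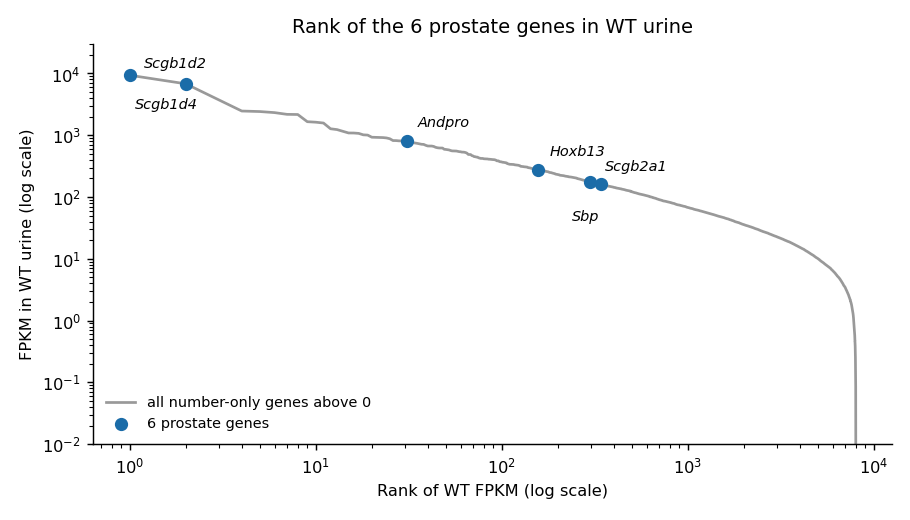
FPKM in WT urine of all number-only genes above 0, ordered from the highest (rank 1) on log axes, with the 6 genes marked. Scgb1d2 and Scgb1d4 take ranks 1 and 2, and the other 4 lie between rank 31 (Andpro) and rank 342 (Sbp).

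All 6 genes were at least 2-fold lower in UUO urine on the log2(FPKM + 1) scale, and 5 of 6 were listed at 0 there. These are the values the set was chosen by. Of the 9853 number-only genes that reached 1 FPKM in a library or in both, 36.5% were at least 2-fold lower and 25.7% at least 2-fold higher in UUO urine. A listing at 0 was found for 2.13% of the 7793 genes with FPKM of at least 1 in WT urine, and for 1.73% of the 635 with at least 100 (11 genes, 5 of them in the set). The log2 differences (UUO minus WT) ran from -13.19 for Scgb1d2 to -6.39 for Scgb2a1, with a median of -8.87 against -0.51 over the 9853 genes. Where UUO urine is listed at 0, the size of the difference is set by the WT level and the pseudocount, and no fold is given. The genes detected in both libraries (7218) had a median log2 difference of -0.81 as deposited, of -0.25 after rescaling to equal sums, of -0.05 by the median ratio and of -0.02 at an equal 75th percentile. Differences of other genes are best read against that shift. A factor cannot move a value of 0, so for 5 of the 6 genes the scalings leave the difference as it is by construction.

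**Figure D3:**
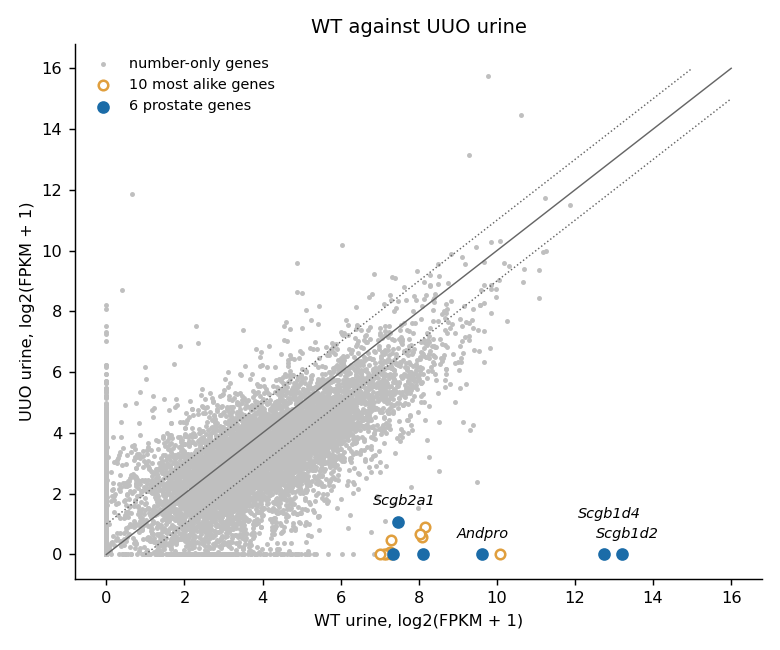
Level in UUO urine against level in WT urine, both as log2(FPKM + 1), for all number-only genes (grey), the 10 genes most like the set (open orange) and the 6 prostate genes (blue), with the line of equality and dotted lines at 2-fold. The 6 genes lie along the bottom edge, and Scgb1d2 and Scgb1d4 are farther to the right than any other gene.

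A value of 0 in the table may be a failed estimate and not absence. Krt5, a keratin gene of basal epithelial cells, was listed at 0 in WT urine while the entries of its locus summed to 317 there. That locus is wide (chr7:141088528-141294636, 25 entries), so the sum need not come from Krt5 and does not show a failed estimate. Of 6 housekeeping genes 5 reached FPKM of at least 1 in both libraries. The prostate genes were therefore also summed over all entries of their loci. The Scgb1d2 locus (4 entries) summed to 9398 in WT and 0.434 in UUO urine. The Scgb1d4 locus (3 entries) summed to 6802 and 0.453, and the Scgb2a1 locus (3 entries) to 177 and 1.30. None of these UUO sums reached the level of 3 fragments on 500 bp. The Sbp locus (6 entries) summed to 162 in WT and 0.971 in UUO urine, and its other named gene, Zg16b, was listed at 0 in both. The Hoxb13 locus (3 entries) summed to 274 and 1.36, and the UUO part came from NONRATG004990 and NONRATT009622, noncoding entries listed at 0 in WT urine. The Andpro locus is wide, with 23 entries, and summed to 1022 in WT and 4.21 in UUO urine. The gene entry of Andpro held 77.5% of that WT sum, and P22k15 most of what was left. Over the 6 loci the sums were 17834 (WT) and 8.73 (UUO), and over the prostatein loci 16376 and 2.19.

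The 6 gene entries together held 5.20% of the summed FPKM of all number-only genes in WT urine and 0.000411% in UUO urine. A share within a library does not move with a factor that scales that library. Of this, the prostatein chains held 4.84% in WT urine. Taken over all features of the table, noncoding and assembled ones included, the WT share of the 6 genes was 2.23%.

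Of the genes around the prostatein chains, some were found in both libraries and others in 1 or neither. The chains lie within 310 kb of chromosome 1. Among the 52 other number-only genes within 1 Mb, 32 reached FPKM of at least 1 in WT and 38 in UUO urine. In all, 40 passed the same filter, of which 18 were at least 2-fold lower and 11 at least 2-fold higher in UUO urine, with a median log2 difference of -0.86. Over all 9853 genes that passed it, 36.5% were lower and 25.7% higher, with a median of -0.51. These values are as deposited, and the region was not tested against that background. Fth1, the ferritin heavy chain gene beyond Scgb2a1, had 450.4 FPKM in the WT library and 954 in the UUO library. Eef1g, a translation elongation factor gene on the other side, had 529.7 and 216 and was the highest of the 52 in WT urine. Asrgl1, the next listed gene before Scgb1d2 and an asparaginase gene, was 118 in WT and 6.51 in UUO urine. The secretoglobin gene Scgb1a1, which encodes the club cell protein of the airway, lies in the same region and was listed at 0 in both libraries. An entry between Scgb1d4 and Scgb2a1 that has no symbol in the RefSeq table used (ID 25010) had 7.33 in WT urine and was listed at 0 in UUO urine. In WT urine the levels of Scgb1d2 and Scgb1d4 were thus more than 10 times those of any other gene within 1 Mb.

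Hoxb13 had the highest WT level of its region as well, followed by Atp5mc1, a gene of the mitochondrial ATP synthase, with 211 in WT and 56.0 in UUO urine. Of 38 other number-only genes within 1 Mb, 26 passed the filter, of which 14 were at least 2-fold lower and 2 at least 2-fold higher in UUO urine, with a median log2 difference of -1.26. Around Sbp 20 of the 46 genes that passed were at least 2-fold lower and 11 higher (median -0.89), and around Andpro 3 of 7 were lower and 2 higher (median -0.12). These counts are as deposited, beside shares of 36.5% lower and 25.7% higher over all 9853 genes, and no region was tested against them. The Hoxb13 level of 274 in WT urine was 5.76 times that of the next Hox gene, Hoxb8, at 47.5, which had 44.4 in UUO urine. Hoxb7 had 9.15 in WT and 9.73 in UUO urine, and Hoxb9, the listed Hox gene nearest to Hoxb13, was at 0 and 0.760. Hoxb8 and Hoxb7 are also expressed in the kidney. Of 23 other Hox genes in the table, 9 reached FPKM of at least 1 in WT and 8 in UUO urine. Of the 11 that reached it in either, 7 were at least 2-fold lower and 2 at least 2-fold higher in UUO urine, and 5 and 2 under each of the 3 rescalings. Hoxd13, a second posterior Hox gene of the lower urogenital tract, had 14.0 in WT and 0.0542 in UUO urine, and Hoxa13 was listed at 0 in both.

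**Figure D4:**
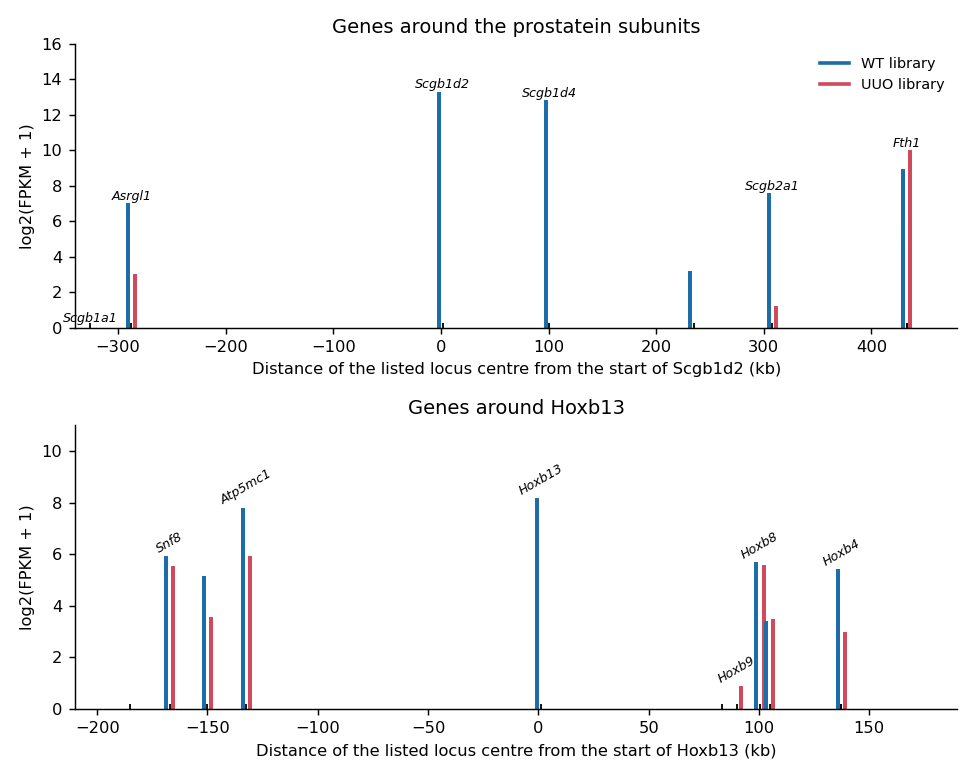
Level of each number-only gene as log2(FPKM + 1) in WT (blue) and UUO (red) urine against its distance in kb, around the prostatein genes (top, from Scgb1d2) and around Hoxb13 (bottom). Black ticks mark listed genes; Scgb1d2, Scgb1d4, Scgb2a1 and Hoxb13 have tall WT bars with little or no UUO bar, while Fth1 and Hoxb8 have bars in both.

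The other genes of the prostate gave a mixed picture. Of 17 further genes known from the prostate, 6 reached FPKM of at least 1 in WT urine, against 47.3% of all number-only genes, and 6 in UUO urine. Spdef, an epithelial transcription factor of secretory cells, was 115 in WT and 14.9 in UUO urine. Slc45a3, the gene of the prostate protein prostein, was 72.0 and 4.35. With Hoxd13 these were the 3 of the list that were at least 2-fold lower in UUO urine, and they were so under each rescaling. Of the 7 that reached 1 FPKM in either library, 1 was at least 2-fold higher as deposited and with equal sums. By the median ratio and at an equal 75th percentile 2 were. Foxa1, a pioneer transcription factor gene that urothelium also expresses, was 50.01 in WT and 25.1 in UUO urine. Its log2 difference was -0.97 as deposited and -0.12 at an equal 75th percentile. Tmprss2, a membrane protease gene also used by kidney and bladder epithelium, was 45.6 and 53.2. The log2 difference of Tmprss2 was 0.22 as deposited, 1.05 by the median ratio and 1.08 at an equal 75th percentile. Acp3, prostatic acid phosphatase, was 1.92 and 1.52.

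The remaining named genes of the prostate list were listed at 0 in WT urine. Pbsn, which encodes probasin of the dorsolateral lobes, was listed at 0 in both libraries, as were Msmb, the beta-microseminoprotein gene, and Tgm4, the transglutaminase gene of the coagulating gland. Spink1, Steap2, Trpm8 and Hoxa13 were at 0 in both as well. Folh1, Steap1 and Azgp1 were listed at 0 in WT urine and at 0.433, 0.799 and 0.189 in UUO urine. Over the locus, the entries of Pbsn summed to 0 in WT and 1.64 in UUO urine, while those of Msmb (12 entries) summed to 103 and 99.2 and those of Tgm4 (15 entries) to 9.07 and 10.04, so a failed estimate cannot be told apart from absence for Msmb and Tgm4.

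Of 6 listed genes of androgen signalling, 4 were at least 2-fold lower in UUO urine as deposited, and 3 under each rescaling. Fkbp5, a co-chaperone gene induced by androgen and by glucocorticoid, was 365 in WT and 5.68 in UUO urine, a difference of -5.78. Zbtb16, a zinc finger gene induced by the same hormones, was 78.5 and 3.11. Odc1, the ornithine decarboxylase gene of polyamine synthesis, was 372 and 135, but was under 2-fold lower after rescaling (-0.83, -0.61 and -0.59). Srd5a1, a steroid reductase gene, was higher in UUO urine, at 5.82 in WT and 16.2 in UUO urine. Srd5a2, the reductase of the prostate, was listed at 0 in WT and at 0.000174 in UUO urine.

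The relatives of the 6 genes differed in their levels. All 6 other secretoglobin genes of the table were listed at 0 in both libraries. Of 12 cystatin genes 3 reached FPKM of at least 1, the widely expressed Cst3 (53.9 in WT, 54.9 in UUO urine), Cstb (44.9 and 53.0) and Cst6 (7.35 and 15.2), and the difference of none reached 2-fold as deposited. After rescaling 1 of them was at least 2-fold higher in UUO urine with equal sums and 2 with the other scalings. Cst8, Cst11 and Cst12, which lie near Andpro on chromosome 3, were listed at 0 in both. That list does not hold the cystatin-related P22k15 or the cystatin S-like Cyssl1, both of which were 154 in WT urine and under 1 in UUO urine. Of 19 kallikrein genes 4 reached FPKM of at least 1, and 3 of these were at least 2-fold lower in UUO urine (2 at an equal 75th percentile). Klk1c9 was 259.8 in WT and 0.599 in UUO urine, Klk1c8 was 23.7 and listed at 0, and both encode glandular kallikreins of the rat. Klk1, the kallikrein gene of kidney and salivary gland, was 10.1 and 2.50, and Klk1b3 was 10.8 and 6.44. Members of this family are close copies, so their single values are uncertain.

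The genes most like the set were taken as the 10 with the highest WT level among number-only genes with FPKM of at least 10 in WT and under 1 in UUO urine. The likeness is over 2 libraries only. Of 5014 genes with at least 10 in WT urine, 141 met the condition, 5 of the set and 136 others. The 10 were S100a7l2 (an S100 calcium-binding protein gene, 1088 in WT urine), Bicd1 (a dynein adaptor gene, 283), Cmahp (a sialic acid hydroxylase gene, 270.4), Klk1c9, Gstm6l, Cyssl1, P22k15, Hexim1, Dnajb3 and Gstm7. Cyssl1 and P22k15 (alias Crp2) lie near Andpro on chromosome 3, P22k15 in the same listed locus, and had 0.386 and 0.0551 in UUO urine. Gstm6l and Gstm7 encode glutathione transferases of the mu class, had 154 and 128 in WT urine and were listed at 0 in UUO urine. Hexim1, an inhibitor of transcription elongation, and Dnajb3, a heat shock co-chaperone gene, were listed at 0 in UUO urine although their loci held 38.9 and 190.1 there. Summed over the locus, 9 of the 10 were still at least 2-fold lower in UUO urine, the exception being Dnajb3 with a log2 difference of -0.28.

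Markers of the other male glands were at 0 in WT urine. All 7 measured seminal vesicle genes, all 9 of the epididymis and all 10 of testis and sperm were listed at 0 there. In UUO urine the highest were Rnase9 of the epididymis at 1.13 and Svs5 of the seminal vesicle at 0.905. The 5 milk protein genes and the 7 measured genes of salivary, lacrimal and preputial glands were likewise at 0 in WT urine, with Csn2 at 1.67 and Smr3b at 1.30 as the highest values in UUO urine. Of the sex-linked genes listed, only Eif2s3y was in the table, at 0 in both libraries and with a chromosome 17 position, so the sex of the rats cannot be read from it.

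Genes of kidney and urothelium were found in both libraries. Uromodulin (Umod), the main urinary protein of the loop of Henle, was 30.1 in WT urine and 26.3 in UUO urine. All 10 tubule genes reached FPKM of at least 1 in WT and 8 in UUO urine. They summed to 225 in WT and 159 in UUO urine, with 4 at least 2-fold lower and 1 higher. The uroplakins, plaque proteins of urothelium, were also high, with Upk3a at 312 in WT and 466 in UUO urine. Psca, a surface antigen gene of prostate and urothelium, was 557 in WT and 97.6 in UUO urine. The urothelial list of 8, Psca included, summed to 1365 and 1224. As deposited, 2 of the 8 were at least 2-fold lower and 3 at least 2-fold higher in UUO urine. Under each rescaling 1 was lower and 5 were higher. Blood genes were higher in UUO urine: Hbb, the beta-globin gene, was 877 in WT urine against 54777 in UUO urine, and the 4 red-cell genes summed to 3073 and 86757. The 5 leukocyte genes summed to 7.55 in WT and 136 in UUO urine, with 4 of them listed at 0 in WT urine. These blood and leukocyte genes all stayed at least 2-fold higher in UUO urine under each rescaling.

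**Figure D5:**
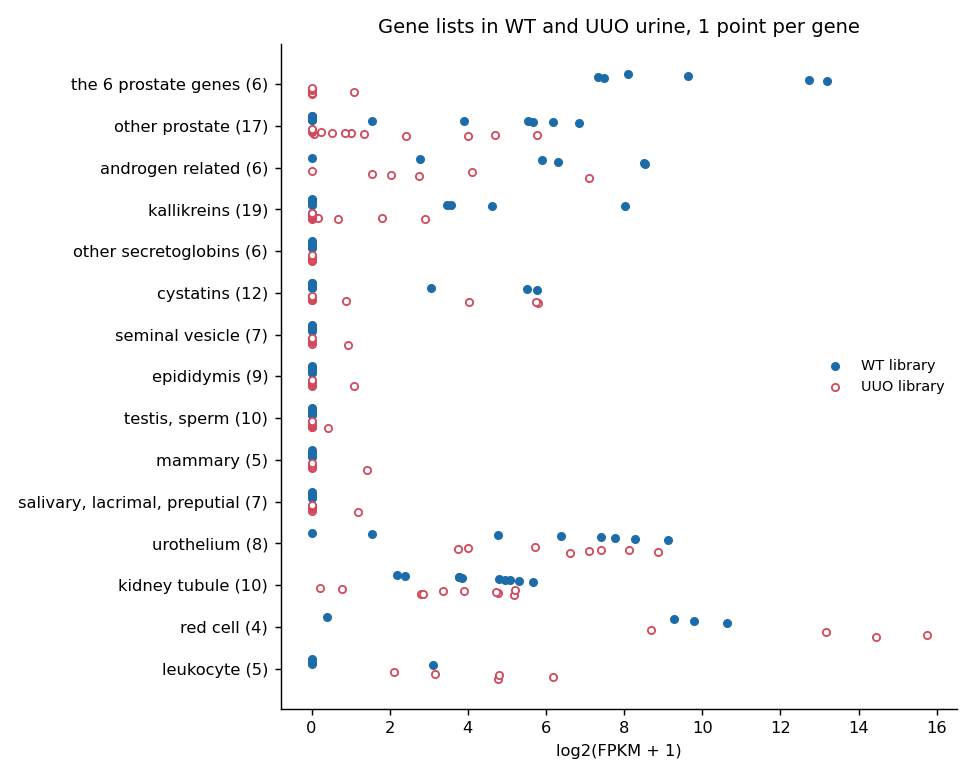
Level of every measured gene of 15 groups as log2(FPKM + 1), with WT urine as filled and UUO urine as open points and the number of genes in brackets. The 6 prostate genes sit at the right in WT and at the left edge in UUO urine, other gland lists lie at or near 0 in both, urothelium and tubule genes are present in both, and red-cell and leukocyte genes are farther right in UUO urine.

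Whether the RNA of these 6 genes came from prostate tissue, as secretion or as shed cells, was not tested, nor was the part of blood or other cells in the difference. In WT urine Scgb1d2 and Scgb1d4 had ranks 1 and 2, and the other genes of the set lay between ranks 31 and 342. The set was chosen by these levels. Of the 17 further prostate genes, 6 reached FPKM of at least 1 in WT urine, against 47.3% of all number-only genes. Spdef (115) and Slc45a3 (72.0) were the highest of these. Of the 7 that reached 1 FPKM in either library, 3 were at least 2-fold lower and 1 higher in UUO urine as deposited. In all, 11 of the 17 were listed at 0 in WT urine, Pbsn among them, though the locus entries of Msmb and Tgm4 summed to 103 and 9.07. The listed genes of seminal vesicle, epididymis and sperm were at 0 there too, and tubule and urothelial genes were found in both libraries. By the study's account the urine had not passed the urethra, into which the prostate empties.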

How the data were processed

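RNA of rat urine was measured in 2 libraries, 1 labelled WT and 1 UUO. By the published methods, reads were dropped by the authors for adapter, undetermined bases or low quality. Read pairs were then aligned (TopHat) and built into transcripts (Scripture, Cufflinks). The submitters' processing notes name Bowtie2 2.0.6, TopHat2 2.0.9, Cufflinks 2.1.1, Cuffdiff 2.1.1 and the rn5 build. The deposited table has a Cuffdiff layout with 1 FPKM value per feature and library, and which total the authors scaled to is not stated. Its fold changes, p-values and q-values are the authors' own comparison and were not used. Reads of overlapping entries are divided between them.

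Symbols came from a RefSeq table of GRCr8, which matched 16329 of 16484 number-only IDs. Differences were taken on log2(FPKM + 1), with a limit of 1 (2-fold) among genes that reached 1 FPKM in at least 1 library. With 1 library per group no test was run. Promoters were aligned in Biopython 1.88 (match 1, mismatch -1, gap opening -5, extension -1, end gaps free). Scripts were tested on simulated data. The prostate genes and all lists were chosen with earlier results of these data known. Named were the 6 genes, the measured genes of the prostate list (1 is not reported here), those needed for a count, range or highest value of other lists, and the 10 most alike genes; other named genes were chosen after their values were seen. Alternatives changed the pseudocount, scaling, filter and locus summing.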

Additional observations from a re-analysis of the deposited data

How the results depend on the processing

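No paired analysis was possible because only 1 library stands for each group, so none could be left out either. Over 12 results and 69 alternatives, 64 values kept their direction and stayed on their side of the limit, or, for counts and shares, stayed within 1.5 times of the reported value. All 6 genes were at least 2-fold lower in UUO urine under the alternatives tried, but they were chosen for that difference, and a factor cannot move the 5 that are listed at 0. The exceptions concern the background and the share. The number-only genes at least 2-fold lower in UUO urine numbered 1770 with a pseudocount of 10, 2157 with equal summed FPKM, 1743 with the median ratio set to 1 and 1702 at an equal 75th percentile, against 3600 as deposited. Each rescaling multiplies UUO values by 1 factor above 1, which lowers that count by construction. The share of the 6 genes in WT urine was 2.23% over all features against 5.20% over number-only genes, as the sum then includes more entries. Depth limits the zeros of UUO urine to under 3 fragments, an FPKM of 3.79 on 500 bp.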
